A study of Mus musculus with 2 samples.

Results

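The MAP kinase phosphatases are the 10 genes Dusp1, Dusp2, Dusp4, Dusp5, Dusp6, Dusp7, Dusp8, Dusp9, Dusp10 and Dusp16, taken from 21755 protein-coding genes on chromosomes 1 to 19 and X. They were chosen by family membership and not by their values, although with earlier results of these data known. All 10 were found in the annotation (GENCODE vM21, GRCm38). Open chromatin around them was read from ATAC-seq, in which a transposase cuts accessible DNA and inserts sequencing adapters. The assay was run on 2 replicate samples of LβT2 cells, an immortalized mouse gonadotrope line, at passage 21. Each sample received 4 pulses of 2 nM GnRH, given 2 h apart within 6 h and 45 min, and was collected 45 min after the last of them. Both samples belong to the same condition and samples kept free of GnRH were not analysed here, so the data show which sites were open under GnRH pulses and not what GnRH changed. A single line stands for gonadotropes here, and the labels do not say whether the replicates came from separate cultures, although the study's text calls the samples and libraries independent.

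MAP kinase phosphatases remove the phosphate groups from the threonine and the tyrosine in the activation loop of MAP kinases, and so switch these kinases off. Dusp1, Dusp2, Dusp4 and Dusp5 encode nuclear enzymes made rapidly after a stimulus, of which the Dusp5 product acts on ERK; Dusp6, Dusp7 and Dusp9 encode cytoplasmic enzymes that prefer ERK; Dusp8, Dusp10 and Dusp16 encode enzymes that prefer JNK and p38. In gonadotropes the GnRH receptor activates ERK, JNK and p38, the kinases on which these phosphatases act. Whether the members feed back on the GnRH signal was not tested here.

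A peak was placed at a member when its summit lay in the gene body or within 50 kb of either end. It was called a promoter peak when the summit lay within 1 kb of any annotated transcription start site (TSS) of the member, and a distal peak otherwise. The deposited lists held 58519 peaks in replicate 1 and 64984 in replicate 2. They give no read totals, so the depth behind a peak was expressed as the number of tags (extended reads) at its summit, solved from the deposited fold enrichment and p-value. A background of 3.05 tags in replicate 1 and 3.54 in replicate 2 accounted for all peaks checked. Peaks with far more tags than any member were left out of this check. The weakest listed peak held 10 and 11 tags, and the median peak 14 and 16. A member without a peak therefore held too few tags to be listed against this background, which does not show closed chromatin. Every interval and test given on tags reflects the error of counting alone. As a check of the labelled cell type, 3 of 5 gonadotrope genes had a promoter peak in replicate 1 and 4 of 5 in replicate 2 (Fshb had none, Nr5a1 had none in replicate 1), against 0 of 7 genes of other pituitary lineages in each replicate.

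The open sequences that the results below turn on are shown first, because the letters show which known response elements lie under or beside the peaks. Each was read from GRCm38 around the mean summit of the replicates, shortened to leave out transcribed leader and coding sequence, and is given 5′ to 3′ on the strand of the gene. Capitals mark matches to the motifs AP1 (TGACTCA or TGAGTCA), CRE (TGACGTCA) and its shorter core (CGTCA), EGR (GCGGGGGCG or GCGTGGGCG), SP1 (GGGGCGG), ETS (CCGGAAG), NFY (CCAAT) and the SRF CArG box, searched on both strands. Matches that overlap run together in the capitals, as EGR and SP1 do in Dusp2. Some marked matches lie outside a peak, such as SP1 in Dusp8 and, in replicate 2, the first SP1 in Dusp2.
Dusp1 promoter (chr17:26508521-26508820, minus strand): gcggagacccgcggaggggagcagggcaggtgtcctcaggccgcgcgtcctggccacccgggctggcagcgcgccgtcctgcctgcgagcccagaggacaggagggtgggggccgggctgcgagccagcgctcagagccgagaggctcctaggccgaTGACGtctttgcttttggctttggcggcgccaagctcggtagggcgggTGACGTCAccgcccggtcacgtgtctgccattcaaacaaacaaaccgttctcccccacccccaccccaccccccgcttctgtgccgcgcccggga
Dusp2 promoter (chr2:127335997-127336158, plus strand): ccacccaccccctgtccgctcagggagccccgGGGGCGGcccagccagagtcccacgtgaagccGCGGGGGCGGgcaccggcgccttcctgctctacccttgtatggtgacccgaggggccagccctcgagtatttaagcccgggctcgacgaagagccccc
Dusp5 promoter (chr19:53528821-53529108, plus strand): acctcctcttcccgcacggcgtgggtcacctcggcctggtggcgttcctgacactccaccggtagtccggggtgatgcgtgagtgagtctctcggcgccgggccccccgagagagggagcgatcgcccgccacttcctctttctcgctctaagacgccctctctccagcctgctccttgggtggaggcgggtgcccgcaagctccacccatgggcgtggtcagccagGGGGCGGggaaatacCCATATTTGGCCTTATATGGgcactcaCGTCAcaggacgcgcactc
Dusp6 promoter (chr10:99263091-99263230, plus strand): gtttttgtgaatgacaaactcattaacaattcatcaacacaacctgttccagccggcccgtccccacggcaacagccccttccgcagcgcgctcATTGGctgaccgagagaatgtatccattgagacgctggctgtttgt
Dusp8 promoter (chr7:142095273-142095563, minus strand, open in replicate 2 only): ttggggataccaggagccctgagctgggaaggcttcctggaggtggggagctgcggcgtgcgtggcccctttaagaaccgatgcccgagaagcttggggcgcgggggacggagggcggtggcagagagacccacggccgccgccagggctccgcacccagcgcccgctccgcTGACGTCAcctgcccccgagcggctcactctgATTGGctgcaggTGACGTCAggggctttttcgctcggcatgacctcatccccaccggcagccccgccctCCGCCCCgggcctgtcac
Dusp10 promoter (chr1:184034184-184034380, plus strand): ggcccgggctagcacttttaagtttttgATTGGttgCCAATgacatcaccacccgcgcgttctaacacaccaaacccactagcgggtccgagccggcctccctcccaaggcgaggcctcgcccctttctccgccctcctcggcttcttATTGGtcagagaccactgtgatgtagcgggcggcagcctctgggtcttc
Dusp10 intron (chr1:184051750-184052049, plus strand): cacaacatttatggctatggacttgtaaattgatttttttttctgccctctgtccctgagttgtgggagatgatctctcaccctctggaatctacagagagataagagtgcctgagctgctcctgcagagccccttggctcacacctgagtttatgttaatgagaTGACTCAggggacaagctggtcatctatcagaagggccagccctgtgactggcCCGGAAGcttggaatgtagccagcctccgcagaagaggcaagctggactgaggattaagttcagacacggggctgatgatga

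The Dusp1 stretch holds a full CRE that starts 96 bp upstream of the TSS, and the Dusp8 stretch holds a pair of full CREs that start 119 and 75 bp upstream. In the Dusp5 stretch a pair of CArG boxes, the binding letters of serum response factor, stand end to end and start 46 and 36 bp upstream of the TSS. The Dusp10 promoter stretch has 3 NFY matches, at 169, 161 and 49 bp upstream, and its intronic stretch has an AP1 match and an ETS match.

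At the level of the family, 5 of 10 members had a promoter peak in replicate 1 and 8 of 10 in replicate 2 (6.5 ± 2.12, mean ± SD, n = 2). Among all protein-coding genes the shares were 32.5% in replicate 1 and 44.8% in replicate 2. The same 5 members, Dusp1, Dusp2, Dusp5, Dusp6 and Dusp10, had a promoter peak in both replicates, where the share over all protein-coding genes was 31.0%. Dusp4, Dusp7 and Dusp8 had a promoter peak in replicate 2 only, and Dusp9 and Dusp16 had none. With 10 genes no test of the share was made.

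**Figure D1:**
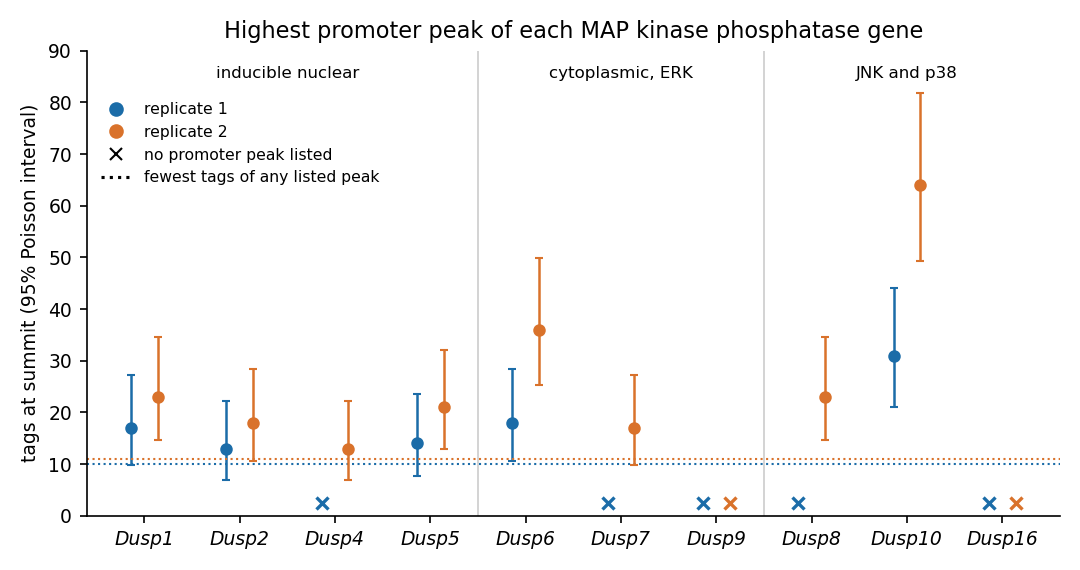
Tags at the summit of the highest promoter peak (y axis) for each MAP kinase phosphatase (x axis, grouped by role) in replicate 1 (blue) and replicate 2 (orange), with 95% Poisson intervals. Crosses mark members without a listed promoter peak and dotted lines the weakest listed peak, 10 and 11 tags. Dusp10 stands highest in each replicate, with 31 and 64 tags, and Dusp2 lowest of the 5 members open in both, with 13 and 18.

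Among the inducible nuclear phosphatases, Dusp1, Dusp2 and Dusp5 were open at the promoter in both replicates, each at a modest level. Dusp1 (chr17:26505590-26562128, minus strand), which encodes the early-induced phosphatase of JNK, p38 and ERK, had 17 tags in replicate 1 (95% interval 9.90 to 27.2) and 23 in replicate 2 (14.6 to 34.5). Its fold enrichment over background was 4.44 and 5.29 (4.87 ± 0.599) and its −log10 q was 5.50 and 9.22 (7.36 ± 2.63). This peak spanned chr17:26508613-26508874 in replicate 1 and chr17:26508659-26508939 in replicate 2, with summits 108 and 197 bp upstream of the TSS at 26508519. That TSS is internal to the annotated gene, whose longest transcript starts far upstream, so the summit lies in an intron of the long transcript. A second Dusp1 promoter peak lay further into the gene in both replicates, with 14 tags at −log10 q 3.49 in replicate 1 and 16 tags at 4.19 in replicate 2. In each replicate 4 of the 6 annotated Dusp1 TSSs had a summit within 1 kb.

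The CRE of Dusp1 lay only partly inside the peak of replicate 1, 16 bp from its summit, and outside the peak of replicate 2, 105 bp from the nearest summit. Replicate 2 had both Dusp1 summits at other positions than replicate 1, 89 bp apart for the stronger peak and 337 bp apart for the second.

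Dusp2 (chr2:127336159-127338376, plus strand), which encodes a nuclear phosphatase best known from immune cells, was the weakest promoter of the 5. It had 13 tags (6.92 to 22.2) in replicate 1 and 18 (10.7 to 28.4) in replicate 2, with −log10 q of 2.88 and 5.51 (4.20 ± 1.86). The summits fell 76 bp upstream and 53 bp downstream of the TSS, and the peaks had 71 bp in common. The overlapping EGR and SP1 matches of the printed stretch, 98 and 95 bp upstream, lay inside both peaks.

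Dusp5 (chr19:53529109-53542431, plus strand), which encodes the nuclear ERK-selective phosphatase, had 14 tags (7.65 to 23.5) in replicate 1 and 21 (13.0 to 32.1) in replicate 2. Its −log10 q was 3.49 and 7.67 (5.58 ± 2.96), with summits 125 and 151 bp upstream of the TSS. Both CArG boxes lay inside both peaks, 83 and 93 bp from the summit in replicate 1 and 109 and 119 bp in replicate 2. The summit also falls in an exon of the noncoding gene AC137853.2, and the peak cannot be assigned to only 1 of these genes.

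Dusp4 (chr8:34807297-34819894, plus strand), the remaining nuclear member and close in role to Dusp1, had no promoter peak in replicate 1, where the nearest summit lay 108 kb from its TSS. In replicate 2 it had 2 weak promoter peaks of 12 and 13 tags, at −log10 q of 1.91 and 2.43. Their summits lay 146 bp downstream of the TSS, in the leader, and 744 bp downstream, in the coding sequence.

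Of the cytoplasmic ERK phosphatases only Dusp6 was open at the promoter in both replicates. Dusp6 (chr10:99263231-99267489, plus strand), the classical feedback phosphatase of ERK, had 18 tags (10.7 to 28.4) in replicate 1 and 36 (25.2 to 49.8) in replicate 2. Its fold enrichment was 4.69 and 8.16 (6.42 ± 2.45) and its −log10 q 6.22 and 21.0 (13.6 ± 10.4). The summits lay 3 bp upstream and 23 bp downstream of the TSS, the closest to a TSS of any member in replicate 1. Of 3 annotated Dusp6 TSSs, 1 had a summit within 1 kb.

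Dusp7 (chr9:106368632-106375724, plus strand) had no promoter peak in replicate 1, with the nearest summit 54.8 kb away. Replicate 2 had a peak of 17 tags at −log10 q 4.84, 806 bp upstream of the TSS. Dusp9 (chrX:73639419-73643514, plus strand), whose product is prominent in placenta, had no peak at the promoter or within 50 kb in either replicate. The nearest summit to its TSS was 76.9 kb away in replicate 1 and 76.8 kb in replicate 2. Of the 50-base words across its promoter, 100% occur at a single place in the genome; the rest of the window was not measured in this way.

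Among the JNK and p38 phosphatases, Dusp10 had the strongest promoter of the family and Dusp16 had none. Dusp10 (chr1:184013302-184075636, plus strand) had 31 tags (21.1 to 44.0) in replicate 1 and 64 (49.3 to 81.7) in replicate 2. Its fold enrichment was 7.90 and 14.3 (11.1 ± 4.55) and its −log10 q 17.6 and 52.9 (35.3 ± 24.9). The peak was also the widest promoter peak of the family, at 1291 bp (chr1:184033624-184034914) and 1411 bp (chr1:184033570-184034980). It lay at the internal TSS at 184034381, with summits 88 and 6 bp upstream, and not at the annotated 5′ end of the gene, which had no promoter peak. A TSS of 1700056E22Rik also lies within 1 kb of the summit, so the accessibility of these 2 genes cannot be told apart here.

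**Figure D2:**
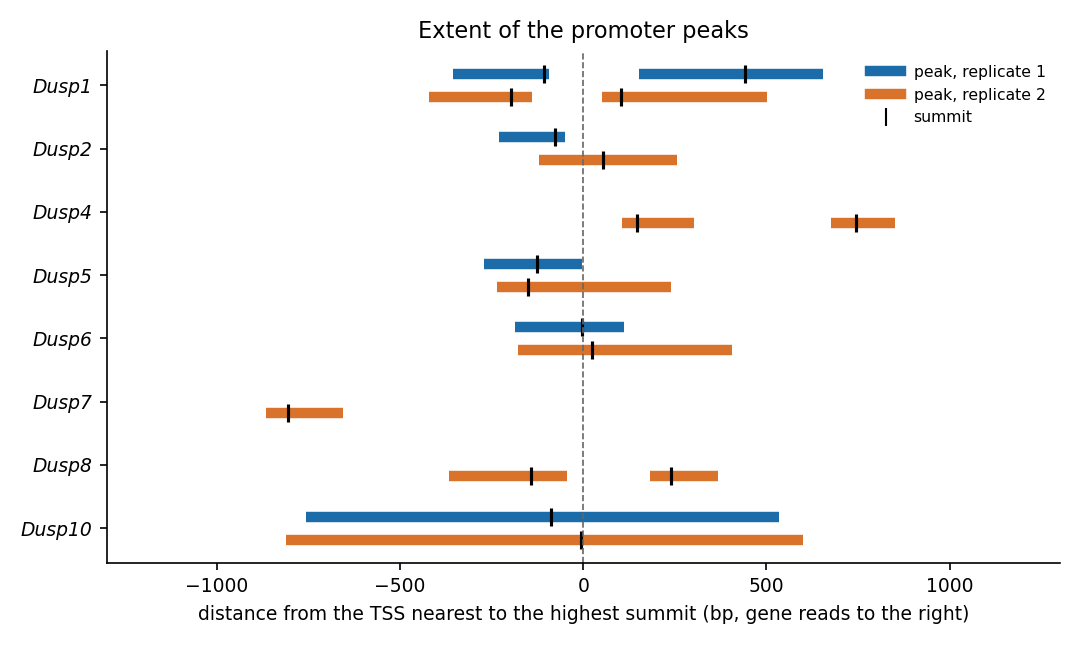
Extent of every promoter peak (bars) and its summit (black ticks) relative to the TSS nearest to the highest summit of the gene (x axis, bp), for the 8 members with a promoter peak (y axis). Blue is replicate 1 and orange is replicate 2. The Dusp10 peaks span 1291 and 1411 bp around the TSS, whereas Dusp4, Dusp7 and Dusp8 have bars in replicate 2 only.

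Dusp8 (chr7:142079490-142095843, minus strand) had no promoter peak in replicate 1, where the nearest summit was 22.4 kb away. In replicate 2 it had a peak of 23 tags, at fold 5.29 and −log10 q 9.22, with a summit 142 bp upstream of the TSS at 142095272, and a second peak of 15 tags at −log10 q 3.57. This was the strongest of the promoters seen in replicate 2 only, and equal in tags to Dusp1 in that replicate. Both CREs of the Dusp8 stretch lay inside the stronger peak, 27 and 71 bp from its summit. Transcripts of Gm32786 begin within 1 kb of the summit as well.

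Dusp16 (chr6:134715468-134792625, minus strand) had no promoter peak at any of its 7 TSSs. The nearest summit was 4.43 kb away in replicate 1 and 12.4 kb away in replicate 2, and 98.6% of the 50-base words across its promoters occur at a single place in the genome. The RefSeq promoter of Dusp16 has a GC content of 68.7%, against a median of 52.7% over 32851 promoters, which lies within the range of the 5 members open in both replicates, from 57.3% at Dusp6 to 70.7% at Dusp2.

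The order of the 5 members open in both replicates was Dusp10, Dusp6, Dusp1, Dusp5 and Dusp2 by tags in each replicate. Neighbours in this order were mostly not separated by their counts. All 10 pairs were compared within each replicate by an exact binomial test (two-sided, Benjamini-Hochberg adjustment over 20 tests), and 1 pair passed an adjusted p of 0.05 in both replicates. This was Dusp2 against Dusp10, with 13 against 31 tags in replicate 1 (adjusted p = 0.0382, exact binomial test) and 18 against 64 in replicate 2 (adjusted p = 6.63e-06, exact binomial test). In replicate 2, Dusp10 was also higher than Dusp5 (adjusted p = 3.28e-05, exact binomial test), Dusp1 (adjusted p = 8.44e-05, exact binomial test) and Dusp6 (adjusted p = 0.0332, exact binomial test). With the adjustment made within replicate 1 alone, 0 pairs passed the exact binomial test there, against 2 at an unadjusted p under 0.05. The corresponding adjusted values over 20 tests in replicate 1 were 0.0536, 0.139 and 0.171 by the same exact test. No pair among Dusp1, Dusp2, Dusp5 and Dusp6 passed in either replicate, the nearest being Dusp2 against Dusp6 in replicate 2 with 18 against 36 tags (adjusted p = 0.0567, exact binomial test).

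Set among all protein-coding genes with a promoter peak, only Dusp10 stood high in both replicates. The median such gene held 19 tags at −log10 q 6.97 in replicate 1, and 27 tags at 12.5 in replicate 2. Dusp10 was at the 85.6 and 94.0 percentile of −log10 q, and Dusp6 at the 45.1 and 71.6 percentile. Dusp1 was at 39.0 and 38.1, Dusp5 at 18.5 and 31.0, and Dusp2 at 12.0 and 19.7. The members seen in replicate 2 only were at 38.1 (Dusp8), 15.8 (Dusp7) and 2.76 (Dusp4).

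**Figure D3:**
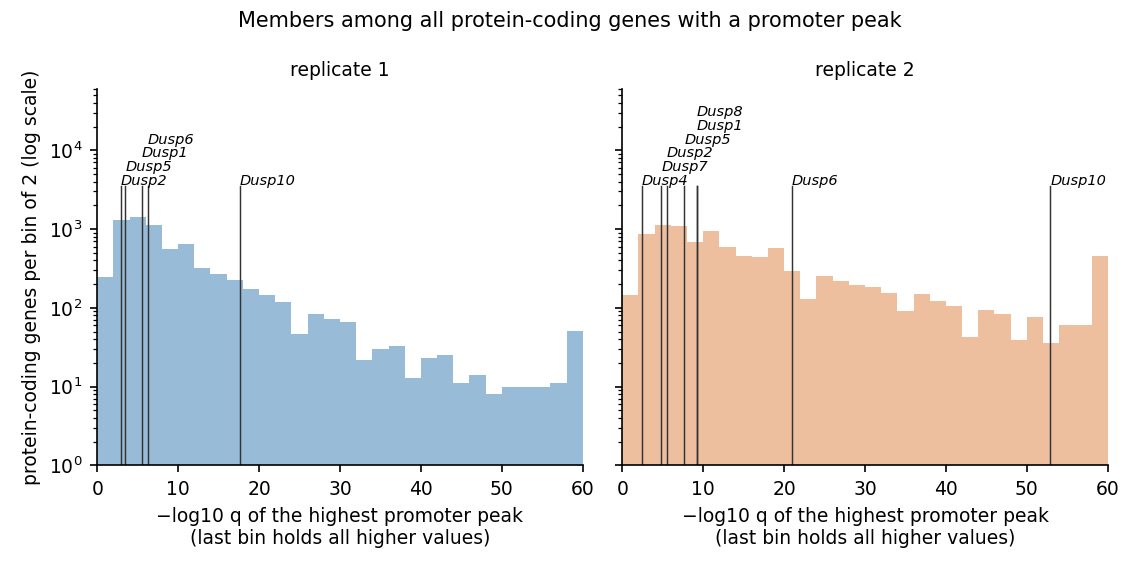
Number of protein-coding genes (y axis, log scale) by the −log10 q of their highest promoter peak (x axis, bins of 2) in each replicate, with the MAP kinase phosphatases marked by vertical lines. Most members lie in the lower part of the distribution, Dusp1, Dusp2 and Dusp5 below the medians of 6.97 and 12.5, and Dusp10 lies in the upper tail at 17.6 and 52.9.

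All 5 members open in both replicates had a higher fold in replicate 2, by 1.19 times at Dusp1, 1.21 at Dusp2, 1.31 at Dusp5, 1.74 at Dusp6 and 1.81 at Dusp10. The same direction was seen in 89.7% of the 6748 protein-coding genes open at the promoter in both samples, at a median ratio of 1.45, and the background was 1.16 times higher. The Dusp10 ratio was at the 81.7 percentile of these genes. Tags rose by a median of 1.65 times over the same genes, and the promoter peaks seen in replicate 2 only had 13, 17 and 23 tags at Dusp4, Dusp7 and Dusp8. The part of this shift in the members seen in replicate 2 only was not tested.

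Distal peaks around the family were few. Replicate 1 had 11 distal peaks around 5 of the 10 members and replicate 2 had 14 around 6 (12.5 ± 2.12 peaks, n = 2). Among all protein-coding genes, 78.7% in replicate 1 and 86.5% in replicate 2 had at least 1 distal peak by the same rule. Scaled to the length searched, the members had 0.876 and 1.11 distal peaks per 100 kb, against 2.24 and 2.66 over all protein-coding genes together and 1.44 and 1.89 at the median gene. The median member had 0.5 and 1 distal peaks, and the median protein-coding gene 2 and 3. Dusp1, Dusp4, Dusp7 and Dusp9 had no distal peak in either replicate.

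**Figure D4:**
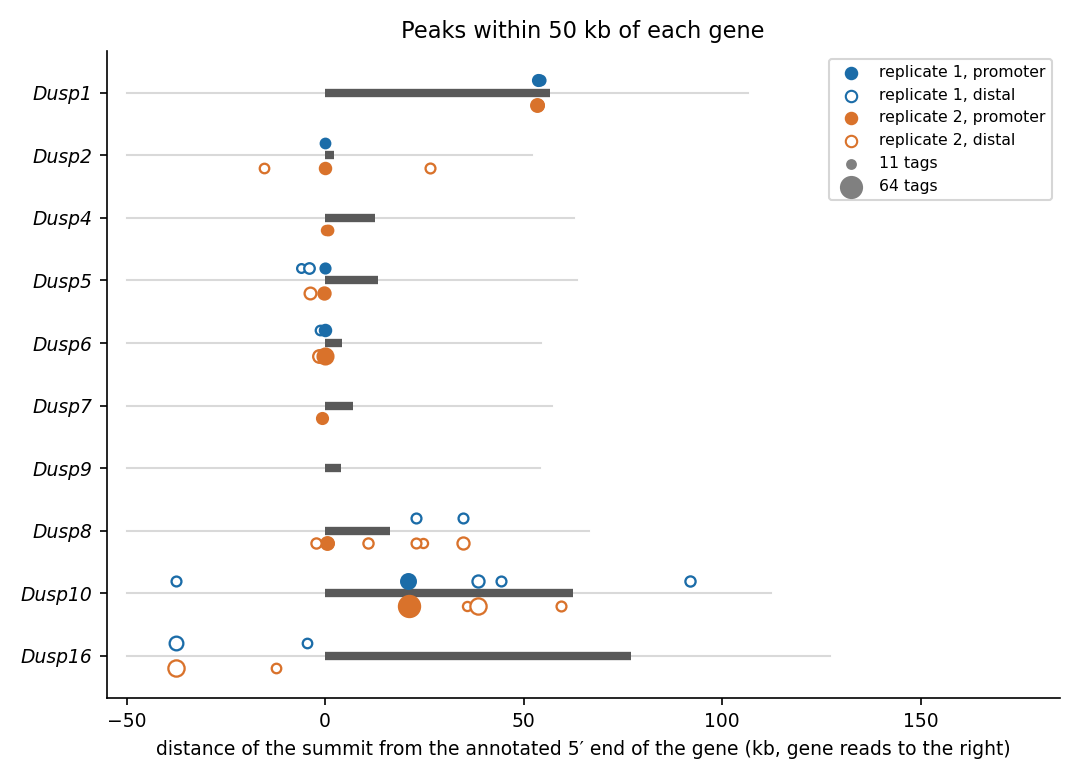
Summits of all peaks at the 10 members (y axis) by distance from the annotated 5′ end of the gene (x axis, kb, every gene read to the right), with gene bodies as dark bars and the windows searched as pale lines. Filled circles are promoter peaks and open circles distal peaks, in blue for replicate 1 and orange for replicate 2, with area in proportion to tags. The strongest circle is the Dusp10 promoter, 64 tags in replicate 2. Open circles in an intron of the same gene stand at 21 and 38 tags, and the Dusp9 line is empty.

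The strongest distal site inside a member was the Dusp10 intronic region printed above. It spanned chr1:184051804-184052165 in replicate 1 and chr1:184051326-184052211 in replicate 2, with summits 17.5 kb downstream of the open TSS. It held 21 tags (13.0 to 32.1) in replicate 1 and 38 (26.9 to 52.2) in replicate 2, at fold 5.43 and 8.60 (7.02 ± 2.24) and −log10 q 8.54 and 23.0 (15.8 ± 10.2). Among peaks further than 1 kb from any TSS it was at the 89.6 percentile of 48583 peaks in replicate 1 and the 97.6 percentile of 51791 in replicate 2. Its AP1 match, TGACTCA, lay 43 bp from the summit in replicate 1 and 7 bp in replicate 2, and its ETS match 96 and 46 bp. Of windows of 301 bp at peaks over 1 kb from any TSS, 2.73% in replicate 1 and 3.18% in replicate 2 held an AP1 match, and 0.0576% and 0.0521% held both motifs. The pair was picked because both matches stand in this stretch, so its share is descriptive and tests nothing.

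Close to Dusp6, a second site lay upstream of the promoter in both replicates (chr10:99261413-99261876 and chr10:99261371-99261870). Its summits were 1.40 and 1.54 kb upstream of the TSS, in intergenic sequence found at a single place in the genome. It held 13 tags in replicate 1 and 23 in replicate 2, at −log10 q 2.88 and 9.22 (6.05 ± 4.48), and stood at the 36.2 and 85.8 percentile of peaks further than 1 kb from any TSS.

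Upstream of Dusp5 the peaks were unusually broad and lay on repeated sequence. The peak spanned 1926 bp in replicate 1 (chr19:53524106-53526031) and 3018 bp in replicate 2 (chr19:53522926-53525943), the widest of the family, with 16 and 20 tags and −log10 q of 4.80 and 6.93 (5.86 ± 1.51). The summits were 3.95 and 3.86 kb upstream of the TSS, and the 50 bp at them occur at 5 and 10 places in the genome. The repeat is shown by 100 bp beside the summits, in which the same phrase returns again and again.
Dusp5 upstream repeat (chr19:53525154-53525253, plus strand): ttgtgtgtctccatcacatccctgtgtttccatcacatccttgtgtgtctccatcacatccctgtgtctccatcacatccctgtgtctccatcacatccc
A further peak of replicate 1, 6.07 kb upstream with 11 tags and −log10 q 1.79, fell inside the same peak of replicate 2. Where reads could come from several copies, the height at 1 of them is uncertain.

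Some distal peaks were promoters of neighbouring genes. The peak 37.4 kb upstream of Dusp16 lay within 1 kb of a TSS of Crebl2, with the same summit position in both replicates, and was stronger than any peak nearer to Dusp16. It spanned chr6:134829958-134830180 in replicate 1 and chr6:134829829-134830288 in replicate 2. It held 27 and 38 tags at fold 6.91 and 8.60 (7.76 ± 1.19) and −log10 q 13.8 and 23.0 (18.4 ± 6.51). Downstream of Dusp8, the peak 34.1 kb (replicate 1) and 34.2 kb (replicate 2) from its TSS was at the promoter of Mob2, with 14 and 21 tags and −log10 q 3.49 and 7.67. Near Dusp2 a peak of 14 tags in replicate 2 only, at −log10 q 2.99, was at the promoter of Adra2b, an adrenergic receptor gene.

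The other distal site found in both replicates was 22.4 kb downstream of the Dusp8 TSS, with 14 tags in each and −log10 q 3.49 and 2.99, and its summit sequence occurs at 7 and 6 places in the genome. The distal peaks found in only 1 replicate held 12 to 15 tags. Among these, the summit of replicate 1 at 4.43 kb upstream of Dusp16 consists of sequence with 4540 copies.

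Of all member peaks, 13 of 17 in replicate 1 and 12 of 25 in replicate 2 overlapped a peak of the other replicate by at least 1 bp. This made 76.5% and 48.0% (62.2 ± 20.1), against 59.1% and 51.6% of all peaks. The 6 promoter peaks of replicate 1 were all found again, and 6 of the 11 promoter peaks of replicate 2. The shares for distal peaks were 63.6% and 42.9%. All promoter summits of the members had single-copy sequence, whereas 6 of 11 distal summits in replicate 1 and 11 of 14 in replicate 2 did.

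Within the windows lay TSSs of 16 other protein-coding genes. Promoter peaks were counted at any TSS of these genes, also outside the windows. By this count 5 genes had a promoter peak in replicate 1 and 8 in replicate 2, and all 5 in both. Inside the windows lay those of Crebl2, Mob2 and 1700056E22Rik in both replicates and of Adra2b in replicate 2. Those of Stard7 and Borcs5 in both replicates, and of Tnks and Poc1a in replicate 2, lay outside. Over all protein-coding genes the shares were 32.5%, 44.8% and 31.0%. Among the 5, 1700056E22Rik is counted through the Dusp10 promoter peak itself. Both neighbours of Dusp16, Crebl2 and Borcs5, had a promoter peak in both replicates, that of Borcs5 outside the window, although Dusp16 had none. Around Dusp9 neither Pnck nor Slc6a8 had a promoter peak in either replicate.

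The promoter peaks lay in GC-rich sequence at all 8 members that had them. In the 201 bp centred on the summit the GC content was highest at Dusp2 in replicate 1, at 71.6%, and at Dusp1 in replicate 2, at 72.6%. It was lowest at Dusp10 in replicate 1, at 58.2%, and at Dusp6 in replicate 2, at 58.7%. The median over all protein-coding promoter peaks was 61.7% in replicate 1 and 63.2% in replicate 2, so Dusp6 and Dusp10, the strongest promoters of the family, fell below it and the weaker Dusp1, Dusp2 and Dusp5 above it in each replicate.

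Motif matches within 100 bp of the promoter summit were counted in the 5 members of replicate 1 and the 8 of replicate 2. No member had an AP1 match, against 2.42% and 2.03% of all protein-coding promoter peaks. A full CRE was found at Dusp1 in replicate 1 and at Dusp8 in replicate 2, where 2.90% of all promoter peaks had such a match in each replicate. An EGR match was found at Dusp2 in replicate 1 and at no member in replicate 2 (3.14% and 3.44% of all), and a CArG box at Dusp5 in replicate 1 and at no member in replicate 2 (0.818% and 0.742%). The commoner NFY motif was found at 2 and 4 members (36.0% and 34.1% of all), SP1 at 2 and 3 (27.3% and 27.6%) and ETS at 0 and 1 (15.1% and 15.7%).

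In the wider window of 301 bp around promoter summits, a pair of CArG boxes as at Dusp5 was present in 0.0481% of protein-coding promoter peaks in replicate 1 and 0.0348% in replicate 2. A pair of full CREs as at Dusp8 was present in 0.0927% in replicate 2. These shares count windows with 2 or more matches at any spacing, not only matches placed as in the printed stretches. The pairs and the wider window were picked because of those stretches, so the shares are descriptive and test nothing. The motif matches describe the letters under or beside the peaks, and binding was not measured.

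Genes of the MAP kinase pathway and other genes of the dual-specificity phosphatase family give the setting of these values. All of them are called pathway genes here, although whether each of the latter acts on the pathway was not tested. Of 48 annotated genes in 6 lists, 28 (58.3%) had a promoter peak in replicate 1, 30 (62.5%) in replicate 2 and 25 (52.1%) in both. Of 13 other genes of the dual-specificity phosphatase family, the same 8 had a promoter peak in both replicates. The highest mean −log10 q was that of Dusp28 (17.3 ± 12.4), and Dusp3, Dusp14, Dusp15, Dusp22 and Dusp26 had no peak. Of the 3 tyrosine phosphatases that act on MAP kinases, Ptpn5 had a peak of 13 tags in replicate 2 only, and Ptprr and Ptpn7 had none.

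**Figure D5:**
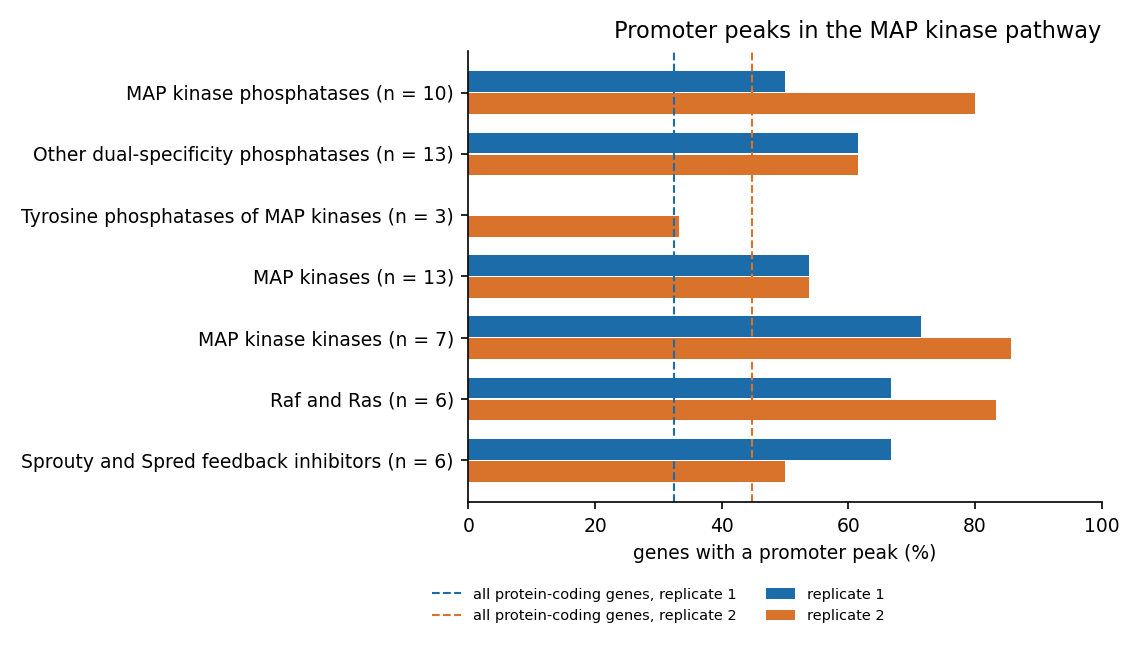
Share of genes with a promoter peak (x axis, %) in the MAP kinase phosphatases and 6 other gene lists (y axis, with the number of genes), in replicate 1 (blue) and replicate 2 (orange). Dashed lines give the shares over all protein-coding genes, 32.5% and 44.8%. By number of genes the MAP kinase phosphatases differ most between the replicates, with 5 and 8 of 10. By share the tyrosine phosphatases do, with 0% and 33.3% of 3 genes.

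Among the MAP kinases themselves, 7 of 13 had a promoter peak in each replicate and 6 in both. Mapk8, which encodes JNK1, was highest with 31 and 54 tags (−log10 q 29.2 ± 16.3), the same number of tags in replicate 1 as Dusp10. Mapk3, Mapk10, Mapk11, Mapk13 and Mapk15 had no promoter peak. Of the kinases upstream, 5 and 6 of 7 MAP kinase kinase genes were open at the promoter, with Map2k3 highest (12.6 ± 9.04) and Map2k2 without a peak. Of the Raf and Ras genes 4 and 5 of 6 were open, with Araf highest (10.3 ± 5.72) and Nras without a peak. The Sprouty and Spred genes, whose products inhibit the Ras to ERK branch by feedback as Dusp6 does at its end, had 4 and 3 of 6 open, with Spred2 highest (12.2 ± 1.66) and Spry1 without a peak. Open in both replicates were 5 of 7 MAP kinase kinase genes, 4 of 6 Raf and Ras genes and 2 of 6 Sprouty and Spred genes. The share over all protein-coding genes in both replicates was 31.0%.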

How the data were processed

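ATAC-seq peaks of 2 replicate samples were analysed. Per the methods, paired-end reads had been mapped by the authors with bowtie2 (GRCm38), freed of duplicates, and used for peak calling in each sample with MACS2, with 200 bp extension and the genome size option for fly ("-g dm"). This option changes the background and thus every fold, p and q. Versions are not given in the sources used here. Each deposited list holds a peak score (equal, in 100% of peaks, to 10 times −log10 q without its decimals), a fold enrichment as a ratio over background, and p-value and q-value, both as −log10.

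Tags and background were solved from fold and p, to within 1.53e-04 in −log10 p for the peaks checked. Exact Poisson intervals are at 95%. Tools were scipy 1.17.1, pandas 2.3.3, numpy 2.4.6, numba 0.67.0 and matplotlib 3.10.9 under Python 3.11.15, with GRCm38, GENCODE vM21 and RefSeq promoters of GRCm38, in which 8 of the 10 members matched (not Dusp4 and Dusp9). The measures were tested on simulated data. Promoters were compared within a replicate with exact binomial tests, whose p-values measure counting error and not the spread between cultures.

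The members, gene lists and motifs were chosen with earlier results of these data known. All members were named, together with distal regions found in both replicates at −log10 q of at least 5 with single-copy summits, pathway genes without a promoter peak, the highest gene of each list, and genes whose promoter held a distal summit. The Dusp5, Dusp6 and Dusp8 distal regions, the Dusp16 peak on repeated sequence, the window neighbours and Ptpn5 are not covered by the rule: they were singled out once their values had been seen. The motif pairs at Dusp5, Dusp8 and the Dusp10 intron were likewise not planned. Alternatives concerned promoter width, window, annotation, threshold on q, overlap, copy number, adjustment, motif window and leaving out a replicate. Read coverage and gene expression were not analysed here.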

Additional observations from a re-analysis of the deposited data

How the results depend on the processing

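Leaving aside the omission of a replicate, 28 alternatives left the counts and shares that answer a comparison within 1.5 times the main value (for the shared percentage, within 1 SD) and 9 did not. A threshold of −log10 q of at least 5 left 3 members with a promoter peak in both replicates and 3.5 distal peaks (mean of the replicates). At 10 or more, 1 member was left in both replicates. The means there were 1.5 members with a promoter peak, 1.5 distal peaks and 12 pathway genes. Separately, 1 of the 5 members with a promoter peak passed in replicate 1, and 2 of the 8 passed in replicate 2. The median protein-coding gene with a promoter peak fell short of 10 in replicate 1, at 6.97, and passed in replicate 2, at 12.5. Whether the family's share stayed above that of all protein-coding genes at either threshold was not tested. A window of 100 kb gave 26.5 distal peaks. Requiring 50% overlap of both peaks lowered the shared percentage from 62.2% to 34.6%. With Holm adjustment 0 pairs of members passed the exact binomial test in both replicates, against 1 with Benjamini-Hochberg and 2 at an unadjusted p under 0.05. With the adjustment made within the remaining replicate, 0 pairs passed without replicate 2 and 5 without replicate 1. Leaving out either replicate gave 5 to 8 members with a promoter peak, 11 to 14 distal peaks and 48.0% to 76.5% shared. Means of 2 replicates moved with either of them: without replicate 2 the promoter −log10 q was 3.49 at Dusp5, 6.22 at Dusp6 and 17.6 at Dusp10, and without replicate 1 it was 7.67, 21.0 and 52.9. For single promoters and motifs, the other alternatives left 39 values within 1 SD (promoters) or 1.5 times (motif counts). They moved 7, all 7 of them motif counts. The promoter values under these alternatives equalled the main ones exactly, since the same peaks were picked, and so say little about stability. No paired analysis was possible because both samples belong to the same group. The fewest tags in a listed peak, 10 and 11, follow from the background and threshold of the peak calling, and sites below them are not in the lists.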
